A study of Bos indicus and Bos taurus with 17 samples.

Results

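Cells make cholesterol from acetyl-CoA through the mevalonate pathway, or take it up from lipoproteins. Both routes are known to be under the control of the transcription factor SREBP2, which SCAP carries out of the endoplasmic reticulum when membrane sterol is low and which INSIG1 holds back when sterol is plentiful. In the mammary gland, cholesterol reaches milk mainly in the membrane around the fat globules. The genes described here were 7 named genes of this system, namely HMGCS1, FDPS, FDFT1 and SQLE among the enzymes and INSIG1, SCAP and SREBF2 among the regulators. Of the 7 genes, 6 were found by name among the 21631 distinct gene names, each in 1 entry, and FDPS, the farnesyl diphosphate synthase, was not analysed here because no entry carried its name.

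The RNA came from milk cells that the study describes as epithelial, captured with magnetic beads that carry an antibody to keratin 18. The cells were from the Kashmiri and Jersey breeds of cattle, on days 15, 90 and 250 in milk (D15, D90 and D250). The labels named 17 untreated samples, 3 for each breed and day except 2 for Jersey at D90, from cows in lactation 2 or 3. Expression was given as FPKM, a fragment count scaled to transcript length and to sequencing depth. The deposited values were 1 per gene and group of breed and day. Wherever 3 values are listed for a breed below, they stand in the order D15, D90, D250. The columns named Local were read as Kashmiri, the only breed in the labels besides Jersey. Neither a spread between cows nor a test could be computed from 1 value per group, and the number of reads behind each group value was not analysed here. The order of any levels below is therefore the order of single values, and 1 cow could carry any of them. All samples of a day carry the same calendar month (March, July or December), so that day and season cannot be told apart. Lactation number also differed between days and breeds. In Kashmiri cattle 3 of 3 samples were in lactation 2 at D90 and 2 of 3 in lactation 3 at D15 and at D250. In Jersey cattle 2 of 3 samples were in lactation 2 at D15, 1 of 2 at D90 and 3 of 3 at D250. The methods of the study give the lactation number and the sampling of the cows otherwise than the labels do, so that it is unsure which cows stand behind a group.

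The markers of cell types differed between the groups. The 14 epithelial markers summed to 6023, 740 and 2710 FPKM in the Kashmiri, and to 2748, 105 and 1438 FPKM in the Jersey groups, so that both breeds were lowest at D90. At D90 14 of the 14 were lowest in Kashmiri and 13 in Jersey cattle, while the highest day was D15 for 10 and D250 for 4 of them in Kashmiri cattle, and D15 for 8 and D250 for 6 in Jersey cattle. KRT18, which encodes the keratin that the antibody binds, followed the same order of days in both breeds, with 51.3, 9.13 and 11.5 FPKM in Kashmiri and 33.7, 1.59 and 4.51 FPKM in Jersey cattle. The 9 neutrophil markers found, of 12 listed, summed to 203, 526 and 652 FPKM in the Kashmiri and to 5158, 6083 and 14608 FPKM in the Jersey groups. The neutrophil sum was thus above the epithelial sum on every day in Jersey cattle and below it on every day in Kashmiri cattle. The 10 macrophage markers summed to between 109 and 491 FPKM in Kashmiri and between 1014 and 2145 FPKM in Jersey cattle. At D250, though, 4 of the 9 macrophage markers tested were lower in Jersey than in Kashmiri cattle. The 10 T and NK cell markers had their highest sum at D90, with 3196 FPKM in Kashmiri and 1883 FPKM in Jersey cattle. Both sums were above the epithelial sum of their group. All 10 T and NK cell markers were highest at D90 in Kashmiri cattle. In Jersey cattle their sum at D90 was mostly CCL5, at 1710 FPKM, and 8 of the 10 markers were highest at D15. The 5 B cell markers summed to at most 77.8 FPKM, and the 2 red blood cell genes found, of 4 listed, to at most 0.633 FPKM. None of the epithelial, neutrophil, macrophage, T, NK or B cell markers found was at 0 in any group. The part of these cell types in the values of the sterol genes was not tested, and fewer cells of a type and less RNA per cell cannot be told apart in such RNA.

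**Figure D1:**
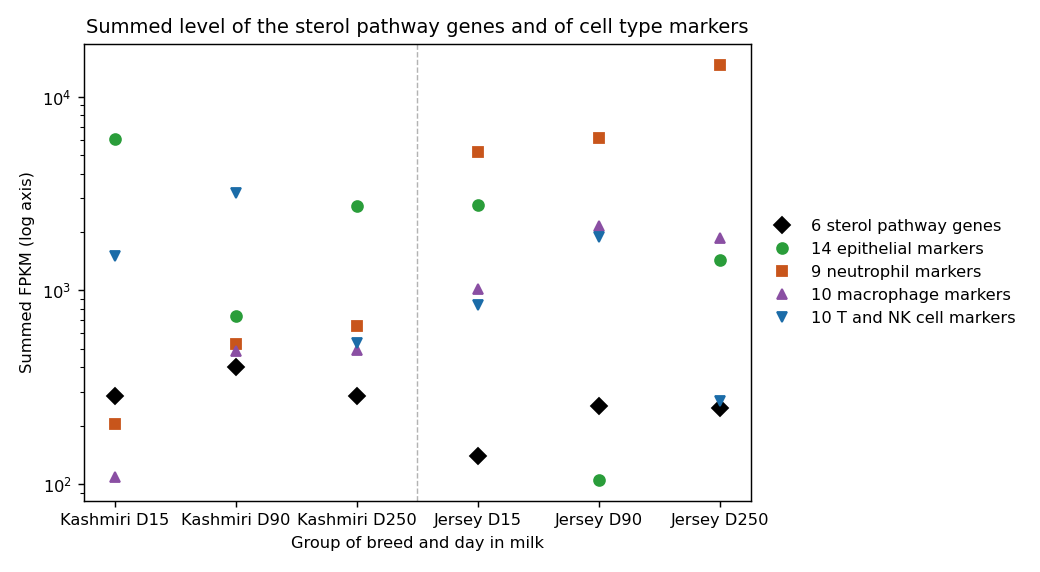
Summed FPKM (log axis) in the 6 groups of breed and day, for the 6 sterol pathway genes found and for the marker lists of 4 kinds of cell, with 1 authors' value per gene and group and no replicates. The sterol genes stayed between 140 and 401 FPKM, while the epithelial markers ranged from 105 to 6023 FPKM and the neutrophil markers from 203 to 14608 FPKM.

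Among HMGCS1, FDFT1 and SQLE, HMGCS1 differed most between the groups. HMGCS1 makes HMG-CoA, the precursor of mevalonate, in the cytosol. Its level was 20.6, 50.9 and 50.6 FPKM in the Kashmiri, and 9.56, 53.2 and 37.1 FPKM in the Jersey groups. D15 was the lowest day in both breeds, and the breeds were closest at D90. The level at D90 was 2.48-fold that at D15 in Kashmiri cattle and 5.56-fold in Jersey cattle. On the log2 scale these differences were 1.31 and 2.48. From D90 to D250 the Kashmiri log2 ratio was -0.01 and the Jersey log2 ratio was -0.52. The Kashmiri ratio became 0.69 when the FPKM were rescaled to their sum without the milk protein genes, and 0.09 when they were rescaled by the upper quartile.

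SQLE, the squalene epoxidase that is held to be a controlled step of the pathway, showed the same low value at D15. It had 23.3, 46.3 and 28.6 FPKM in Kashmiri and 12.01, 29.7 and 32.02 FPKM in Jersey cattle. Its level at D90 was 1.98-fold that at D15 in Kashmiri cattle and 2.47-fold in Jersey cattle. At D250 the Kashmiri level was lower than at D90 again, with a log2 ratio of -0.70, while the Jersey log2 ratio was 0.11. These ratios of D250 over D90 turned around in both breeds after rescaling to the sum, to 0.00088 and -0.30.

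FDFT1, the squalene synthase that commits farnesyl diphosphate to sterols, varied least among the enzymes. It had 53.6, 77.1 and 57.4 FPKM in Kashmiri and 29.96, 56.5 and 47.5 FPKM in Jersey cattle. Its highest level was at D90 in both breeds, 1.44-fold that at D15 in Kashmiri and 1.89-fold in Jersey cattle. After rescaling to the sum, however, D250 became the highest Kashmiri day, since the log2 ratio of D250 over D90 went from -0.43 to 0.27. Across the 6 groups the 3 enzymes moved alike, with Pearson's r of 0.90 between HMGCS1 and SQLE, 0.85 between HMGCS1 and FDFT1 and 0.93 between FDFT1 and SQLE. These 6 points are group values that share their scaling, and r is given as a description.

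**Figure D2:**
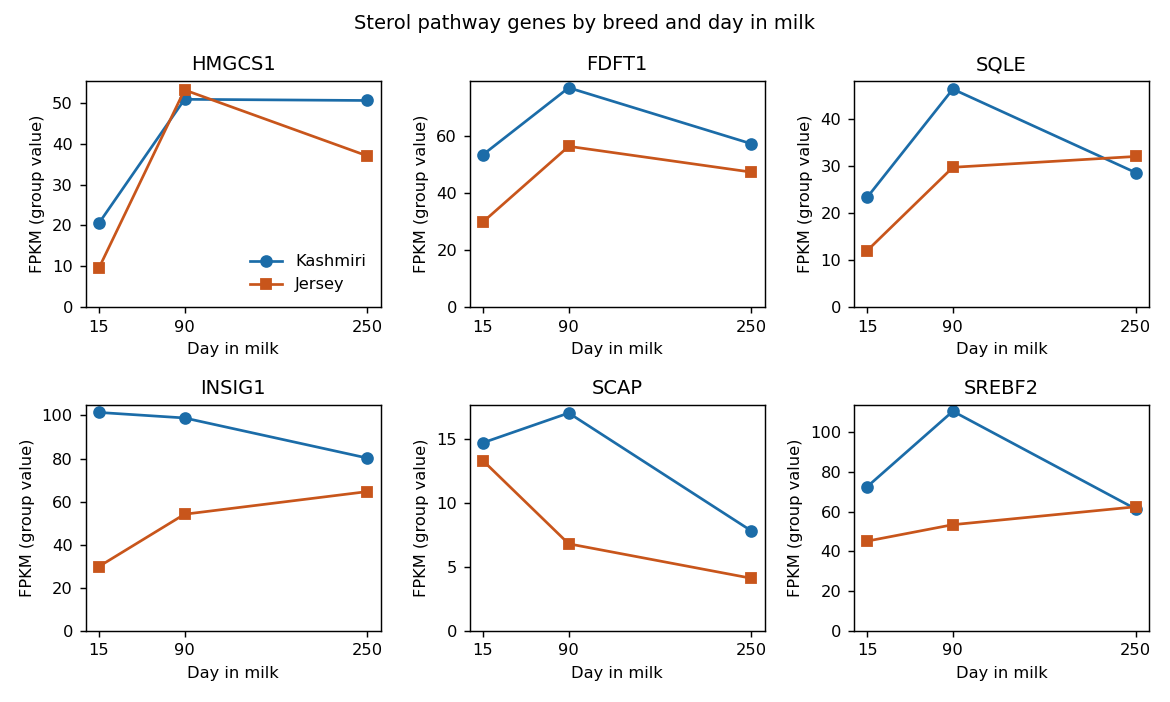
FPKM of the 6 genes found, by day in milk (D15, D90, D250), for Kashmiri (circles) and Jersey cattle (squares), with 1 authors' value per point, no error bars and an axis of its own for each gene, starting at 0. HMGCS1, FDFT1 and SQLE are lowest at D15 in both breeds, and INSIG1 and SCAP lie higher in Kashmiri than in Jersey cattle on all 3 days, except that SCAP at D15 turned around after rescaling to the sum.

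Of the regulators, INSIG1, which retains the SCAP and SREBP2 complex in the endoplasmic reticulum and is itself a target of SREBP2, had the widest gap between the breeds at D15. INSIG1 had 101, 98.8 and 80.2 FPKM in the Kashmiri and 29.9, 54.1 and 64.6 FPKM in the Jersey groups. The Kashmiri values were all above the Jersey values, and as scaled by the authors the days were ordered in opposite directions in the breeds. This order depended on the scaling. The Kashmiri log2 ratio of D90 over D15, -0.04, became 0.28 under the sum and 0.13 under the upper quartile. The Jersey log2 ratio of D250 over D90, 0.26, became -0.16 and -0.003. The Jersey level over the Kashmiri level had a log2 ratio of -1.76 at D15, -0.87 at D90 and -0.31 at D250. Within the Kashmiri breed the log2 ratio of D250 over D15 was -0.34 and became 0.67 after rescaling to the sum, while the Jersey ratio of 1.11 kept its sign.

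SCAP, the escort and sterol sensor of SREBP2, was the lowest of the 6 genes in 5 of the 6 groups. SCAP had 14.7, 17.01 and 7.80 FPKM in Kashmiri and 13.3, 6.79 and 4.10 FPKM in Jersey cattle. It was lowest at D250 in both breeds, but at D90 it was the highest of the 3 days in Kashmiri cattle and already down to 6.79 FPKM in Jersey cattle. The Kashmiri log2 ratio of D250 over D15 was -0.91 and became 0.10 after rescaling to the sum, so that D250 was then not the lowest Kashmiri day. The log2 ratio of D250 over D90 was -1.12 for Kashmiri and -0.73 for Jersey cattle, and that of D90 over D15 was 0.21 and -0.97. SCAP did not follow the enzymes across the groups, with Pearson's r of -0.38 with HMGCS1, -0.17 with SQLE and 0.10 with FDFT1 over the 6 values.

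SREBF2, which encodes SREBP2, had 72.7, 111 and 61.4 FPKM in Kashmiri and 45.2, 53.5 and 62.5 FPKM in Jersey cattle. The Kashmiri level at D90 stood above the other 5 groups, and the breeds were nearly equal at D250 as scaled by the authors. The log2 ratio of D90 over D15 was 0.61 in Kashmiri and 0.24 in Jersey cattle. SREBF2 followed INSIG1 (r = 0.82), FDFT1 (r = 0.83) and SQLE (r = 0.78) across the 6 groups more closely than HMGCS1 (r = 0.48). SREBF1 encodes SREBP1, the related factor known mainly for fatty acid genes, and the ratio of SREBF2 to SREBF1, both per length, was 0.791, 3.28 and 2.31 in Kashmiri and 1.30, 3.26 and 2.64 in Jersey cattle, lowest at D15 in both breeds.

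The summed level of the 6 genes was 286, 401 and 286 FPKM in the Kashmiri and 140, 254 and 248 FPKM in the Jersey groups. After rescaling to the sum, the Kashmiri group at D250 (436) exceeded that at D90 (377). The highest group value of a gene over its lowest was 5.56 for HMGCS1, 4.15 for SCAP, 3.86 for SQLE, 3.40 for INSIG1, 2.57 for FDFT1 and 2.45 for SREBF2. Over the 8568 genes with at least 1 FPKM in all groups, the median of this quotient was 3.50 and the quartiles were 2.32 and 6.18, so that none of the 6 genes lay above the upper quartile.

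For counts, a gene was taken as past the 2-fold limit when 1 FPKM had been added to both values and their log2 ratio reached 1 in either direction, with a level of at least 1 FPKM in either group. All 6 genes had at least 1 FPKM in every group. As scaled by the authors, HMGCS1 alone of the 6 was past this limit from D15 to D90 in Kashmiri cattle, higher at D90. Of all genes tested, 14.7% were higher and 18.8% lower. The median log2 ratio of the 6 genes was 0.56, that of all genes was -0.01, and 5 of the 6 lay above the median of all genes. SQLE was also past the limit there under both rescalings, higher at D90. In Jersey cattle, as scaled by the authors, HMGCS1 and SQLE were higher at D90 and no member was lower, against 12.8% and 16.9% of all genes. The medians were 0.87 and -0.07. FDFT1 was also higher past the limit there under both rescalings, and INSIG1 under the sum. From D90 to D250 SCAP was lower in Kashmiri cattle, where 8.95% of genes were higher and 8.77% lower, and the 6 genes had a median of -0.55 against 0.03, with 6 of 6 below the median of all genes. SCAP was not past the limit under either rescaling, and the median of the 6 genes became 0.13 under the sum. In Jersey cattle none of the 6 was past the limit from D90 to D250, against 16.6% of genes higher and 4.22% lower, with medians of -0.07 and 0.15. From D15 to D250 HMGCS1 was higher in Kashmiri cattle, against 11.2% and 14.5% of genes. Under the sum FDFT1 and SQLE were also higher past the limit there. In Jersey cattle HMGCS1, SQLE and INSIG1 were higher at D250 and SCAP was lower, against 24.5% and 17.9% of genes. INSIG1 was not past the limit there under either rescaling.

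The number of genes past the limit in each direction depended on how FPKM were scaled. With FPKM rescaled to their sum without the milk protein genes, the median over all genes shifted by between -0.64 and 0.85 on the log2 scale in the 9 comparisons, and with the upper quartile by between -0.42 and 0.25. Of the 6 milk protein genes listed, 5 were found. CSN1S1, CSN2 and PAEP were above 0 only in Jersey cattle at D90. CSN3 had 8174, 0 and 0 FPKM in Kashmiri and 1817, 653 and 0 in Jersey cattle. LALBA had 0, 12933 and 13031 FPKM in Kashmiri and 0, 297 and 5140 in Jersey cattle. What the sum left out thus differed between groups. Why values were 0 was not tested. The study describes casein and whey protein genes as highly expressed throughout in both breeds. Of the genes past the limit, the share that was higher went under the sum from 43.9% to 60.5% at Kashmiri D90 over D15, from 50.5% to 91.4% at D250 over D90 and from 43.7% to 93.8% at D250 over D15. In Jersey cattle it went from 43.1% to 59.4% at D90 over D15 and from 79.8% to 51.4% at D250 over D90. Jersey over Kashmiri, it went from 55.1% to 75.4% at D15, from 51.6% to 65.8% at D90 and from 66.0% to 27.2% at D250. Under the upper quartile it moved to 64.2% at Kashmiri D250 over D15, to 64.8% at Jersey D250 over D90 and to 38.2% at Jersey over Kashmiri D250. Relative to the median of all genes, HMGCS1 stood at 1.27 in Kashmiri and 2.43 in Jersey cattle on the log2 scale for D90 over D15, SQLE at 0.97 and 1.31, and FDFT1 at 0.52 and 0.96. The ratios of D90 over D15 of these 3 enzymes were above 0 in both breeds under all 3 scalings.

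Of 16 further enzymes of sterol synthesis analysed, the D90 level was past the 2-fold limit against D15 upward for 6 and downward for 3 in Kashmiri cattle, and upward for 7 and downward for 1 in Jersey cattle. The shares of all genes were 14.7% and 18.8% in Kashmiri and 12.8% and 16.9% in Jersey cattle. MSMO1, a sterol C4 demethylase, had 23.7, 87.3 and 57.8 FPKM in Kashmiri and 9.37, 56.3 and 46.2 FPKM in Jersey cattle. CYP51A1, the lanosterol demethylase, had 25.7, 68.1 and 32.8 FPKM in Kashmiri and 7.43, 37.8 and 27.9 FPKM in Jersey cattle. Both had the low D15 value of HMGCS1 in both breeds. ACAT2, which makes acetoacetyl-CoA in the cytosol, had 9.70, 36.5 and 20.8 FPKM in the Kashmiri and 22.0, 76.6 and 50.4 FPKM in the Jersey groups, and was higher in Jersey than in Kashmiri cattle on all 3 days. SC5D, the lathosterol oxidase, went from 3.79 FPKM at D15 to 15.3 and 15.998 FPKM in Jersey cattle.

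MVK, the mevalonate kinase, went the other way, with 139, 37.7 and 55.5 FPKM in Kashmiri and 75.7, 19.3 and 21.6 FPKM in Jersey cattle. For D90 over D15 the log2 ratio of MVK was -1.88 for Kashmiri and -1.97 for Jersey cattle, and its highest value was at D15 in both breeds, as was the sum of the epithelial markers. Among the 19 enzymes analysed, members included, 10 were higher at D90 than at D15 in both breeds by the sign of the ratio alone, 5 were lower in both (MVK, PMVK, TM7SF2, HSD17B7 and EBP) and 4 differed in direction. The counts were the same with either rescaling. The shares of all genes that were higher or lower in both breeds were not computed, so these counts are a description only. PMVK is the next kinase of the pathway, and HSD17B7 and EBP act on sterol rings. TM7SF2, a sterol reductase, was read from an entry it shares with VPS51. From D90 to D250, as scaled by the authors, only CYP51A1 in Kashmiri and MVD in Jersey cattle were past the limit, both lower. Of all genes, 8.95% were higher and 8.77% lower in Kashmiri, and 16.6% and 4.22% in Jersey cattle. MVD, the mevalonate diphosphate decarboxylase, went from 96.3 to 40.8 FPKM. In Kashmiri cattle the log2 ratio (pseudocount 1) was -1.03 for CYP51A1 and 0.96 for HSD17B7, both close to the limit. The Kashmiri median over all genes shifted by 0.59 under the sum and 0.10 under the upper quartile. Whether either gene was past the limit thus depended on the scaling. From D15 to D250, as scaled by the authors, 3 enzymes were higher and 1 lower in Kashmiri cattle, and 5 higher and 2 lower in Jersey cattle. The shares of all genes were 11.2% and 14.5%, and 24.5% and 17.9%.

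**Figure D3:**
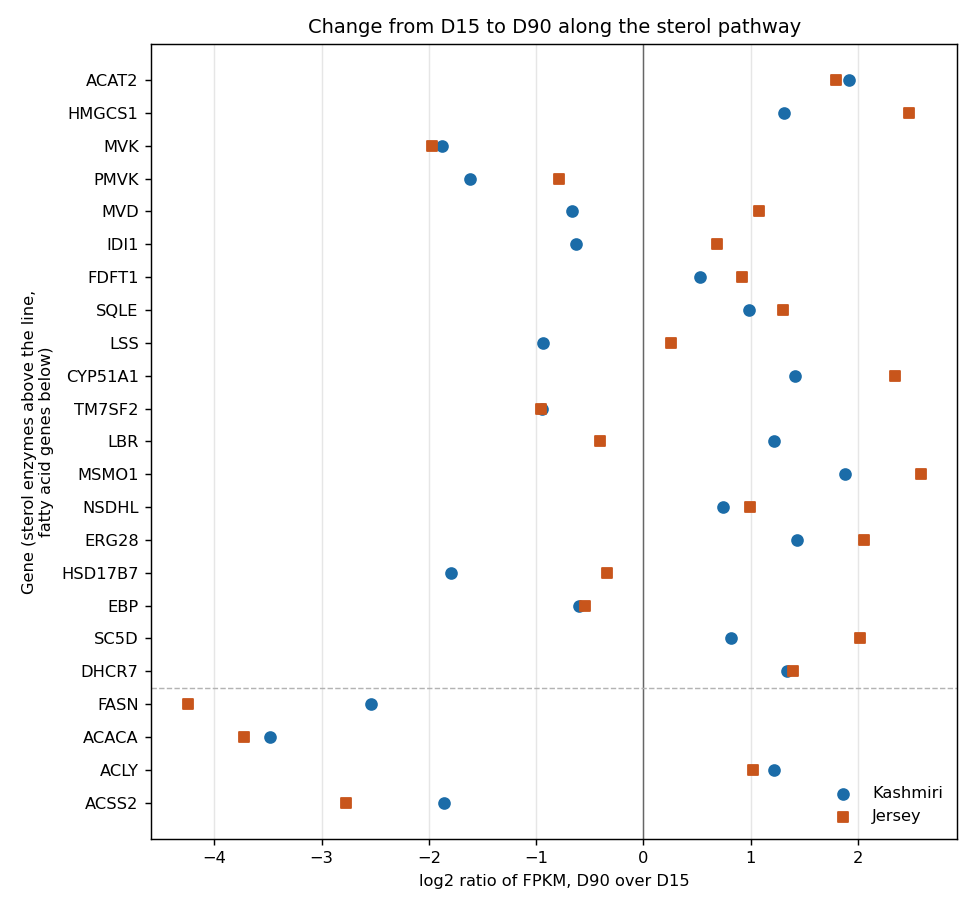
The log2 ratio of FPKM, D90 over D15, for the 19 sterol synthesis enzymes analysed, in the order of the pathway, and below the dashed line for the 4 fatty acid genes with at least 1 FPKM on both days in both breeds, in Kashmiri (circles) and Jersey cattle (squares). Single authors' values without error are compared; HMGCS1 lies at 1.31 and 2.48 and MVK at -1.88 and -1.97.

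In the fatty acid synthesis list, FASN, ACACA and ACSS2 were lower at D90 than at D15 in both breeds, whereas HMGCS1, FDFT1 and SQLE were higher. The 16 further sterol enzymes were mixed, by the sign of the ratio alone. In Kashmiri cattle 8 were higher and 8 lower, with a median log2 ratio of 0.05 (pseudocount 1). In Jersey cattle 10 were higher and 6 lower, with a median of 0.79. FASN, the fatty acid synthase, had 829, 142 and 639 FPKM in Kashmiri and 188, 9.92 and 228 FPKM in Jersey cattle. ACACA, the acetyl-CoA carboxylase, had 128, 11.5 and 54.2 FPKM in Kashmiri and 29.3, 2.22 and 13.0 FPKM in Jersey cattle. ACSS2, which activates acetate, had 382, 105 and 376 FPKM in Kashmiri and 113, 16.5 and 97.2 FPKM in Jersey cattle. These 3 genes were lowest at D90 in both breeds, as were the epithelial markers, whereas ACLY, which makes cytosolic acetyl-CoA from citrate and was read from a joined entry, was highest at D90, with 17.3 FPKM in Kashmiri and 17.9 FPKM in Jersey cattle. ELOVL6, a chain elongase, stayed between 0.3196 and 1.68 FPKM, ME1, the malic enzyme, was under 1 FPKM except for 1.41 FPKM in Kashmiri cattle at D250, and no entry carried the name SCD. The ratio of HMGCS1 to FASN, both per length, was 0.0248, 0.358 and 0.0792 in Kashmiri and 0.0507, 5.36 and 0.162 in Jersey cattle. It was highest at D90 in both breeds.

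Of 9 listed genes of lipoprotein uptake and lysosomal release of cholesterol, 8 were found. At D90 over D15, 4 were higher and 1 lower past the limit in Kashmiri cattle, and 2 higher and 0 lower in Jersey cattle, beside the same shares of all genes (14.7% and 18.8%, and 12.8% and 16.9%). STARD4, a carrier of cholesterol in the cytosol, was highest at D90 in both breeds, at 16.99 and 8.17 FPKM. LIPA, the lysosomal acid lipase that frees cholesterol from its esters, had 11.4, 109.6 and 144 FPKM in Kashmiri and 109, 301 and 114 FPKM in Jersey cattle. MYLIP, a ubiquitin ligase that acts on lipoprotein receptors, had 5.20, 14.6 and 4.79 FPKM in Kashmiri and 5.18, 10.1 and 23.7 FPKM in Jersey cattle. MYLIP was lower again at D250 in Kashmiri cattle, with a log2 ratio to D90 of -1.61. VLDLR, a receptor of triglyceride-rich lipoproteins, was lowest in Kashmiri cattle at D90, at 1.63 FPKM. As scaled by the authors, 2 were higher and 1 lower in Kashmiri and 1 higher and 1 lower in Jersey cattle from D90 to D250. From D15 to D250, 3 were higher in Kashmiri and 3 in Jersey cattle, with none lower. Of all genes, 8.95% were higher and 8.77% lower in Kashmiri and 16.6% and 4.22% in Jersey cattle over the former interval, and 11.2% and 14.5%, and 24.5% and 17.9%, over the latter.

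LRP1 and SCARB1, receptors with many ligands, were higher in Jersey than in Kashmiri cattle on every day. LRP1 had 2.68, 9.26 and 27.6 FPKM in Kashmiri and 45.1, 42.8 and 64.5 FPKM in Jersey cattle. SCARB1 had 5.24, 15.04 and 13.5 FPKM in Kashmiri and 28.4, 44.7 and 49.99 FPKM in Jersey cattle. All Jersey values of both genes were above all Kashmiri values, as were the sums of the neutrophil and of the macrophage markers. NPC1, which exports cholesterol from the lysosome, was also higher in Jersey cattle on all 3 days, at 13.6, 18.6 and 29.0 FPKM against 8.40, 8.02 and 8.998 FPKM.

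Of 9 other regulators of the SREBPs, RNF139 and SREBF1 were past the limit at D90 over D15 in both breeds, in opposite directions. The counts were 1 higher and 1 lower in Kashmiri and 2 higher and 1 lower in Jersey cattle. The shares of all genes were 14.7% and 18.8% in Kashmiri and 12.8% and 16.9% in Jersey cattle. RNF139, a ubiquitin ligase of the endoplasmic reticulum, had 2.66, 10.8 and 7.10 FPKM in Kashmiri and 5.24, 15.3 and 26.2 FPKM in Jersey cattle. SREBF1 had 91.8, 33.8 and 26.6 FPKM in Kashmiri and 34.9, 16.4 and 23.7 FPKM in Jersey cattle, and was highest at D15 in both. INSIG2, the other INSIG protein, was past the limit at D90 over D15 in Jersey cattle, with 8.30 against 2.80 FPKM, and INSIG1 exceeded it per length between 6.52-fold and 36.0-fold in the 6 groups. ERLIN1 and FAF2, which take part in protein degradation at the endoplasmic reticulum, were highest in Jersey cattle at D250, at 26.1 and 10.7 FPKM, the former in an entry shared with CHUK. ERLIN2, the partner of ERLIN1, was highest in Jersey cattle at D90, at 25.9 FPKM. MBTPS1, the site-1 protease that cuts SREBP2, had 15.98 FPKM in Kashmiri and 7.18 FPKM in Jersey cattle at D90. Against D15, 1 regulator was higher and 1 lower in Kashmiri cattle at D250, and 0 were past the limit at D250 over D90. In Jersey cattle the counts were 3 higher and 0 lower, and 1 higher and 0 lower. The shares of all genes for these comparisons were 11.2% and 14.5%, 8.95% and 8.77%, 24.5% and 17.9%, and 16.6% and 4.22%, higher and lower in turn.

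Jersey over Kashmiri at D15, HMGCS1 and INSIG1 were lower past the limit and no member was higher, against 13.0% of all genes lower and 15.9% higher. The log2 ratios were -1.10 for HMGCS1, -0.84 for FDFT1, -0.96 for SQLE, -1.76 for INSIG1, -0.15 for SCAP and -0.68 for SREBF2, all below 0, with a median of -0.86 (pseudocount 1) against -0.13 for all genes. The ratio of SCAP turned to 0.25 after rescaling to the sum, where INSIG1 alone was past the limit. Under the upper quartile SQLE was lower past the limit beside HMGCS1 and INSIG1. At D90 SCAP and SREBF2 were lower in Jersey cattle, with log2 ratios of -1.32 and -1.05, against 15.9% of genes lower and 17.0% higher, and the median of the 6 genes was -0.74. Under the sum 0 of the 6 were past the limit at D90. At D250 none of the 6 was past the limit, against 22.8% of genes higher and 11.7% lower, and the median was -0.29 against -0.10. Under the sum HMGCS1, FDFT1, INSIG1 and SCAP were lower past the limit in Jersey cattle at D250, with a median of -1.04, and under the upper quartile SCAP was. As scaled by the authors, SCAP had a log2 ratio of -0.93 at D250, SQLE of 0.16 and SREBF2 of 0.02. The ratios of SQLE and SREBF2 were below 0 under both rescalings. At D15 the epithelial markers also had a lower sum in Jersey cattle, 2748 against 6023 FPKM, and the neutrophil markers a higher one, 5158 against 203 FPKM. KRT19 alone held 1687 FPKM of the Jersey and 3195 FPKM of the Kashmiri epithelial sum. Of the 14 epithelial markers, 6 were lower past the limit in Jersey cattle and 2 were higher. The 2 were CLDN4 and KRT8, the latter in an entry shared with KRT4.

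**Figure D4:**
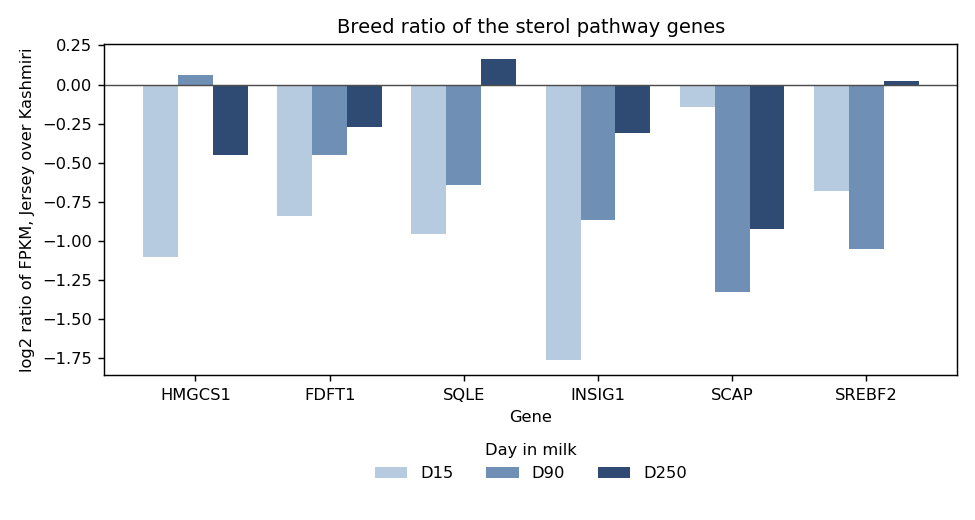
The log2 ratio of FPKM, Jersey over Kashmiri, for the 6 genes found on D15, D90 and D250 (light to dark bars, drawn from 0), from 1 authors' value per group and without error. All 6 bars for D15 lie below 0, from -0.15 for SCAP to -1.76 for INSIG1, while at D250 SQLE and SREBF2 lie slightly above 0 as scaled by the authors.

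Of the 16 further enzymes, 7 were lower and 1 higher in Jersey than in Kashmiri cattle at D15, 1 lower and 2 higher at D90, and 2 lower and 1 higher at D250. HSD17B7 had the most negative ratio at D15, with 9.21 FPKM in Jersey against 46.8 FPKM in Kashmiri cattle. DHCR7, a sterol reductase, had 18.9 against 41.8 FPKM at D90. LSS, the lanosterol synthase, had 9.59 against 26.8 FPKM at D15 and 7.69 against 16.9 FPKM at D250. The gene that was higher in Jersey cattle at each day was ACAT2, with MVD beside it at D90. Of the uptake genes, 3 were higher and 1 lower at D15, 5 higher and 0 lower at D90, and 5 higher and 0 lower at D250. Of the other regulators, 0 were higher and 1 lower at D15, 1 higher and 1 lower at D90, and 3 higher and 0 lower at D250. The shares of all genes were 15.9% higher and 13.0% lower at D15, 17.0% and 15.9% at D90, and 22.8% and 11.7% at D250. These counts are as scaled by the authors, and their directions were not counted under the rescalings. At D250 the median over all genes shifted by -0.64 under the sum and by -0.42 under the upper quartile. VLDLR and LRP1, with log2 ratios of 1.01 and 1.19 there (pseudocount 1), were past the limit by less than these shifts.

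The genes whose pattern over the 6 groups lay nearest to that of the enzymes were ranked by the root mean square distance between centred log2 values (pseudocount 1), against the mean of HMGCS1, FDFT1 and SQLE, among 8565 other genes with at least 1 FPKM in all groups. The 5 nearest were C14orf1 at 0.150, SUMO2 at 0.171, MED4 at 0.180, REPS1 at 0.181 and NBN at 0.183. C14orf1 is the older name of ERG28, a scaffold of the sterol C4 demethylation complex, and had 5.32, 14.4 and 10.3 FPKM in Kashmiri and 2.94, 12.2 and 8.34 FPKM in Jersey cattle. SC5D was at rank 6, CYP51A1 at 207, DHCR7 at 275 and MSMO1 at 555. Farther off were MVD at rank 3210, LSS at 3334, EBP at 4080 and ACAT2 at 4412. TM7SF2 was at rank 5412, PMVK at 5675, HSD17B7 at 5775 and MVK at 7563. HMGCS1 itself lay at 0.326 from the mean it was part of, farther than the 5 nearest genes. Likeness over 6 group values was not tested.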

How the data were processed

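RNA from milk cells that the study describes as epithelial was sequenced in 17 labelled samples of Kashmiri and Jersey cattle. The authors used Trimmomatic for trimming, Bowtie2 and TopHat for alignment to UMD3.1, and Cufflinks and Cuffdiff for the deposited FPKM, 1 value for each of 6 groups. The labels name a stranded kit; the strand setting of the quantification is not given in the sources used here. The study gives reads per library, but the reads behind each group FPKM are not in the values used here, and no interval is given.

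Of 61264 entries, 25121 carried a gene name. Where a name recurred, its entry of highest mean was kept, and joined names were read by their parts. Ratios of single genes had no pseudocount. The genes named were the members, the 3 genes of each of 3 wider sterol lists that lay farthest past the limit in a comparison with at least 1 FPKM in both groups, the fatty acid genes, the markers and the 5 nearest patterns; PMVK, TM7SF2 and EBP were added after their values were seen. Some genes of the wider lists are not reported here and enter none of the list counts. The members and lists were chosen with earlier results of these data known. The enzyme pattern used 3 enzymes, since FDPS had no entry.

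Alternatives were another pseudocount, no filter, a higher limit, both rescalings, summed repeated entries and joined entries left out. The code was tested on simulated data. Calculations ran in Python 3.11.15 with pandas 2.3.3 and numpy 2.4.6, and plots in matplotlib 3.10.9.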

Additional observations from a re-analysis of the deposited data

Results flagged for a closer look

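Some ratios of the regulators went in opposite directions in the breeds and differed by at least 1 on the log2 scale; the differences were not tested, since each group has 1 value. For INSIG1, D250 over D15, the log2 ratio was -0.34 in Kashmiri and 1.11 in Jersey cattle, a difference of 1.45. It was 0.29 with FPKM rescaled to the sum, where both breeds were above 0, and 1.07 with the upper quartile. For SCAP, D90 over D15, the ratios were 0.21 and -0.97, a difference of -1.18, and the directions stayed opposite under both rescalings, with differences of -1.23 and -1.20. For SREBF2, D250 over D90, the ratios were -0.85 and 0.22, a difference of 1.07, which was -0.04 under the sum and 0.71 under the upper quartile, where both breeds were below 0.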

How the results depend on the processing

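No paired analysis was possible because each group has 1 authors' value, and for the same reason no replicate could be left out. A pseudocount of 0.1, no filter on low values, summed repeated entries and joined entries left out kept the counts of members past the limit and their medians within the set bounds (a factor of 1.5, or 0.58 on the log2 scale) in all 9 comparisons. At an absolute log2 ratio of at least 2 the members past the limit numbered 1 at Jersey D90 over D15 (HMGCS1), and 0 in the other 6 comparisons that had any at the lower limit. Under the sum they numbered 2 at Kashmiri D90 over D15, 0 at D250 over D90 and 3 at D250 over D15, 4 at Jersey D90 over D15, and, between the breeds, 1 on D15, 0 on D90 and 4 on D250. Medians of the members were then 0.13 at Kashmiri D250 over D90, 0.92 at Kashmiri D250 over D15 and -1.04 at Jersey over Kashmiri D250, and the members summed to 436 in Kashmiri cattle at D250. Under the upper quartile the members past the limit numbered 2 at Kashmiri D90 over D15, 0 at Kashmiri D250 over D90 and 1 at Jersey over Kashmiri D250. Over all genes, the number past the limit went from between 2023 and 4800 to between 226 and 1431 at the higher limit, and under the sum from 2023 to 3543 at Kashmiri D250 over D90, from 2953 to 5043 at Kashmiri D250 over D15 and from 4017 to 6188 at Jersey over Kashmiri D250. Over the 3 wider sterol lists it went from between 4 and 16 to between 0 and 4 at the higher limit, under the sum from 4 to 9 at Kashmiri D250 over D90 and from 9 to 17 at Kashmiri D250 over D15, and under the upper quartile from 4 to 2 at Jersey D250 over D90. The cause of these shifts was not tested. Of 54 ratios of single members, 15 changed sign under a rescaling.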
